A study of Mus musculus with 8 samples.

Results

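Radial glia and intermediate progenitors are dividing cells of the embryonic cortex, and 10 genes that mark them were followed here in Nuak1 KO and WT cortex at E18.5. They are Pax6, Sox2, Hes1, Hes5, Eomes, Neurog2, Nes, Vim, Fabp7 and Slc1a3, taken by symbol from the 21165 gene rows of the count table, which holds 1 row for each. RNA from microdissected cortices of 4 KO embryos (2 male, 2 female) and 4 WT embryos (1 male, 3 female) was sequenced as poly-A libraries. The KO embryos come from a constitutive Nuak1 knockout line, in which the kinase is missing from every cell type and which dies at birth, on a C57Bl/6JRj background, and the controls are labelled WT. The labels name 3 litters, each with embryos of both genotypes, but the columns of the table give the genotype and a running number only. The column names therefore assign neither sex nor litter to a library, and nothing ties KO library R1 to WT library R1. Sex was not inferred from the counts of sex-linked genes.

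Libraries held between 9643711 and 27014858 counts, the lowest in WT library R4. Nuak1 lay between 11.1 and 20.5 normalized counts in KO and between 877 and 1445 in WT, so every library followed its label. Normalized counts here are the counts brought to a common effective library size, the mean of the 8. Of the 12 genes listed as cortical projection neuron markers, Tbr1, Emx1 and Neurod6 were counted in every library. Ttr, a choroid plexus marker, did not exceed 15.2 normalized counts. The 7 listed choroid plexus and ependymal markers together summed to between 71.9 and 203, the highest in WT library R4. KO library R1 stood apart, with the highest count of all 6 tested meningeal fibroblast markers, all 12 endothelial and pericyte markers and all 8 microglia markers. The 9 meningeal markers summed to 10681 normalized counts in it and to between 367 and 661 in the other 7 libraries. Red blood cell markers summed to 4742 in KO library R2 and 3181 in KO library R1, and to between 617 and 1428 in the rest.

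Radial glia line the ventricle, span the cortical wall and act as its neural stem cells. PAX6 and SOX2 are transcription factors that hold this state, and Notch signalling maintains it through the repressors HES1 and HES5, which silence proneural genes. NEUROG2 drives the step to a neuronal fate, and EOMES (TBR2) marks the intermediate progenitors that arise there and divide into neurons. Nestin (Nes) and vimentin (Vim) form the intermediate filaments of the glial fibre, FABP7 (BLBP) carries fatty acids and SLC1A3 (GLAST) takes up glutamate. The last pair of genes stays active as radial glia give rise to astrocytes late in gestation, and Vim and Nes are also made by vascular and meningeal cells.

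RefSeq promoters, from 250 bases before to 50 after the start of transcription on GRCm38.p6, were matched for 9 of the 10 genes, all but Hes1. They are shown for Hes5 and Fabp7, the 2 genes whose window holds TGGGAA, the core letters read by RBPJ, the DNA-binding partner of Notch, on either strand, and for Slc1a3, the gene with the smallest p. Capitals mark TGGGAA or its reverse complement.
Hes5 promoter, chr4:154960673-154960972, plus strand: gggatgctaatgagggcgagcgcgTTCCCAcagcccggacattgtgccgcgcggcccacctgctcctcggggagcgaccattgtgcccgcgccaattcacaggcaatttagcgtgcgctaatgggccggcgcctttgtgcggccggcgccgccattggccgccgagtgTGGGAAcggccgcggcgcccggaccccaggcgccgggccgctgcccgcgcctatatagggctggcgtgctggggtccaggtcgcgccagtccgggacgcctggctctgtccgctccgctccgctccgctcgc
Fabp7 promoter, chr10:57784673-57784972, plus strand: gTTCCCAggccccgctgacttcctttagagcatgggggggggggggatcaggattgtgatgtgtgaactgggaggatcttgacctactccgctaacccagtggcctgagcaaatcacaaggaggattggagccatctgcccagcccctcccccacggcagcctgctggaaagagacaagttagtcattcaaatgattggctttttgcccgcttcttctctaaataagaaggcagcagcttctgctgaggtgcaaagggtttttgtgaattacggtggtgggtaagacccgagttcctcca
Slc1a3 promoter, chr15:8710758-8711057, minus strand: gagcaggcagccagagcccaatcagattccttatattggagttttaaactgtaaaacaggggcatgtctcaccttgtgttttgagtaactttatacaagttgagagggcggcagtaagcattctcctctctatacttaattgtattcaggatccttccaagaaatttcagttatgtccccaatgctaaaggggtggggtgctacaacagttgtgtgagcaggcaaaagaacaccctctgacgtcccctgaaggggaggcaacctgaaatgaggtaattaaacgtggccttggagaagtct
In Hes5 the letters begin 226 bases before the start on the minus strand and 82 bases before it on the plus strand, and in Fabp7 they begin 249 bases before it on the minus strand. Among 32851 promoters of the same length, 25.6% hold these letters at least once, so a match is common and describes the sequence only. These positions are on another build than the mm9 mapping of the reads and were not joined to the counts.

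No gene of the 10 changed at an adjusted p of 0.05 between KO and WT, by the quasi-likelihood test of edgeR, adjusted by Benjamini-Hochberg over the 12699 genes tested, where 0.0709% of all genes were called. DESeq2 also called 0 of the 10. Slc1a3 alone had an unadjusted p under 0.05 in edgeR and was lower in KO, so 1 of the 10 was called, beside 3.18% of all genes in that direction and 7.69% in either. DESeq2 likewise had 1 of the 10 lower at this p, Slc1a3, beside 2.7% of all genes. The same gene alone passed an absolute log2 fold change over 0.25 with that p, beside 1.8% of all genes lower at these thresholds. The log2 fold change was below 0 for 9 of the 10 genes and above 0 for Sox2, with a median of -0.11, beside a median of -0.01 over all genes, of which 54.4% were below 0. In each of the 10 genes the libraries of the genotypes overlapped, as they did in all but 4.49% of the genes tested. For any lower value in bulk cortex, fewer progenitors, less RNA per progenitor and less RNA from other cell types cannot be told apart.

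**Figure D1:**
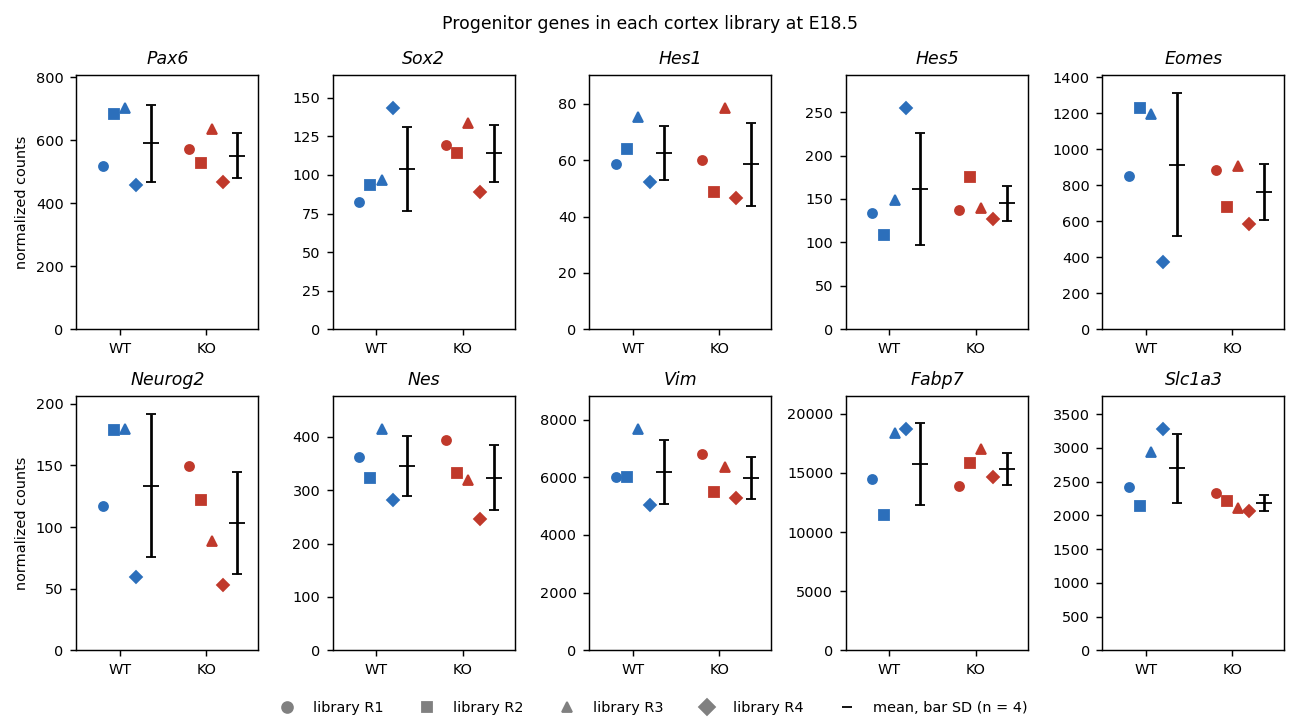
Normalized counts (vertical axes, each from 0) of the 10 genes in the WT (blue) and KO (red) libraries, with the library number as symbol and the mean and SD (n = 4) in black. WT library R4 is the lowest library for Eomes (375) and the highest for Hes5 (255) and Slc1a3 (3282), and the genotypes overlap in every panel.

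The glutamate transporter Slc1a3 (chromosome 15, from 8584124 to 8660764 on NCBIM37, minus strand) had the smallest p of the 10. KO libraries R1 to R4 had 2332, 2214, 2112 and 2061 normalized counts and WT libraries R1 to R4 had 2416, 2140, 2944 and 3282. The 4 KO libraries lay close together and 3 of the 4 WT libraries were above all of them, whereas WT library R2 was below KO libraries R1 and R2. The WT mean was 2695 ± 514 and the KO mean 2180 ± 120 (SD, n = 4 each). The log2 fold change was -0.30 with a 95% interval of -0.56 to -0.05 and a standard error of 0.11, or a change of -19%. The unadjusted p was 0.0224 and the adjusted p 0.611 (edgeR), and a 2-sided exact permutation test of the log2 values gave p = 0.0857, where 4 against 4 libraries cannot go below 0.0286. When 1 library at a time was dropped, the log2 fold change lay between -0.40 without WT library R2 (unadjusted p = 0.00167, edgeR) and -0.19 without WT library R4 (unadjusted p = 0.0615, edgeR). The unadjusted p was under 0.05 in 4 of those 8 fits.

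Fabp7 (chromosome 10, from 57504687 to 57508256, plus strand), which is active in the same glial lineage, did not pass the test. Its normalized counts were 13929, 15829, 17033 and 14638 in KO libraries R1 to R4 and 14464, 11460, 18405 and 18728 in WT libraries R1 to R4. WT libraries held both the lowest and the highest value. The log2 fold change was -0.04 (95% interval -0.34 to 0.26, adjusted p = 0.968, edgeR), which leaves room for a change between -20.9% and 20.1%. Its direction turned to 0.06 without WT library R4 and to 0.02 without KO library R1. The difference between the fold changes of Slc1a3 and Fabp7 was not tested.

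Pax6 and Sox2, the transcription factors of radial glia, did not pass the test and had opposite signs. Pax6 (chromosome 2, from 105509053 to 105543317, plus strand) had 573, 528, 636 and 467 normalized counts in KO libraries R1 to R4 and 517, 684, 703 and 458 in WT libraries R1 to R4. Library R4 was the lowest of its genotype in both. Its log2 fold change was -0.11 (standard error 0.14, 95% interval -0.42 to 0.21, adjusted p = 0.903, edgeR). With 1 library left out it moved between -0.20 without WT library R4 and -0.0083 without WT library R3, with -0.18 without KO library R3, -0.17 without WT library R1, -0.03 without KO library R4 and -0.02 without WT library R2. The exons of Pax6 overlap those of Elp4 on the other strand, and the strand setting of the counting is not given in the sources used here. Sox2 (chromosome 3, from 34548927 to 34551383, plus strand) lies inside Sox2ot, a non-coding gene on the same strand, though no exons overlap in the annotation. Its normalized counts were 119, 114, 134 and 89.0 in KO libraries R1 to R4 and 82.2, 93.8, 96.4 and 144 in WT libraries R1 to R4. WT library R4 was the highest of the 8 while the other WT libraries were below 3 of the KO libraries. The log2 fold change was 0.15 (standard error 0.19, 95% interval -0.27 to 0.57, adjusted p = 0.9, edgeR) and became 0.33 without WT library R4 (unadjusted p = 0.0635, edgeR) and 0.26 without KO library R4, but 0.05 without WT library R1 or without KO library R3 (unadjusted p = 0.81 in each, edgeR).

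Hes1 and Hes5, the Notch effectors, did not pass either. Hes5 (chromosome 4, from 154335032 to 154336480, plus strand), whose promoter holds TGGGAA at 2 positions, had 137, 175, 140 and 127 normalized counts in KO libraries R1 to R4. WT libraries R1 to R4 had 134, 109, 149 and 255. The KO libraries lay within the range of WT, whose R4 library stood well above the rest. Its log2 fold change of -0.14 (95% interval -0.65 to 0.37, adjusted p = 0.92, edgeR) became 0.15 without that library. As with Pax6, exons of Hes5 overlap those of a gene on the other strand, RP24-89N4.5, and the strand setting of the counting is not given. Hes1 (chromosome 16, from 30064470 to 30067882, plus strand) was counted by only 31 to 127 reads per library, so counting error alone reaches 18% in the lowest. It had 60.2, 48.7, 78.6 and 46.5 normalized counts in KO libraries R1 to R4 and 58.6, 64.0, 75.3 and 52.4 in WT libraries R1 to R4. The values of the genotypes interleaved, with a log2 fold change of -0.09 (95% interval -0.54 to 0.37, adjusted p = 0.951, edgeR), and changes from -31.4% to 29.2% are within the interval. Counts of Hes5 per count of Hes1 ranged from 1.78 to 3.59 among KO libraries and from 1.70 to 4.87 among WT libraries, highest in WT library R4.

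The neurogenic pair Eomes and Neurog2 had the widest intervals of the 10 genes. Eomes (chromosome 9, from 118387330 to 118395250, plus strand) had 883, 681, 905 and 585 normalized counts in KO libraries R1 to R4 and 852, 1229, 1193 and 375 in WT libraries R1 to R4. All 4 KO libraries were below the WT mean of 912 ± 397 (SD, n = 4), yet all were above WT library R4. The KO mean was 764 ± 156 (SD, n = 4), and the log2 fold change of -0.27 had a standard error of 0.29 (95% interval -0.90 to 0.36, adjusted p = 0.871, edgeR). Neurog2 (chromosome 3, from 127336054 to 127338549, plus strand) had 150, 122, 88.5 and 53.3 normalized counts in KO libraries R1 to R4 and 117, 179, 180 and 59.1 in WT libraries R1 to R4. In each genotype the R4 library was the lowest, by a wide margin in WT. Its log2 fold change was -0.43 (standard error 0.36, 95% interval -1.21 to 0.35, adjusted p = 0.832, edgeR), so that the data allow anything from a change of -56.8% to one of 27.5%. Both depended on single libraries, on either side. With 1 library left out, Eomes ranged from -0.51 without WT library R4 to -0.09 without WT library R2 (unadjusted p = 0.779, edgeR), with -0.11 without WT library R3 and -0.15 without KO library R4. Neurog2 ranged from -0.67 without KO library R1 to -0.19 without KO library R4 (unadjusted p = 0.574, edgeR), with -0.66 without WT library R4, -0.25 without WT library R2 and -0.27 without WT library R3.

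The filament genes Nes and Vim had small fold changes. Nes (chromosome 3, from 87775000 to 87784373, plus strand) had 395, 331, 320 and 247 normalized counts in KO libraries R1 to R4 and 362, 323, 415 and 282 in WT libraries R1 to R4. The range of each genotype covered most of the other, and the log2 fold change was -0.11 (95% interval -0.44 to 0.22, adjusted p = 0.905, edgeR). Vim (chromosome 2, from 13495554 to 13504453, plus strand) had 6811, 5490, 6368 and 5278 in KO libraries R1 to R4 and 6015, 5995, 7677 and 5035 in WT libraries R1 to R4, a log2 fold change of -0.05 (95% interval -0.31 to 0.22, adjusted p = 0.955, edgeR). KO library R1, where the meningeal and vascular markers were high, had the highest Nes and Vim of the KO libraries. Without it the log2 fold changes were -0.21 for Nes and -0.10 for Vim, with unadjusted p of 0.179 and 0.418 (edgeR). Counts of Nes per count of Vim stayed between 0.047 and 0.060 in all 8 libraries.

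**Figure D2:**
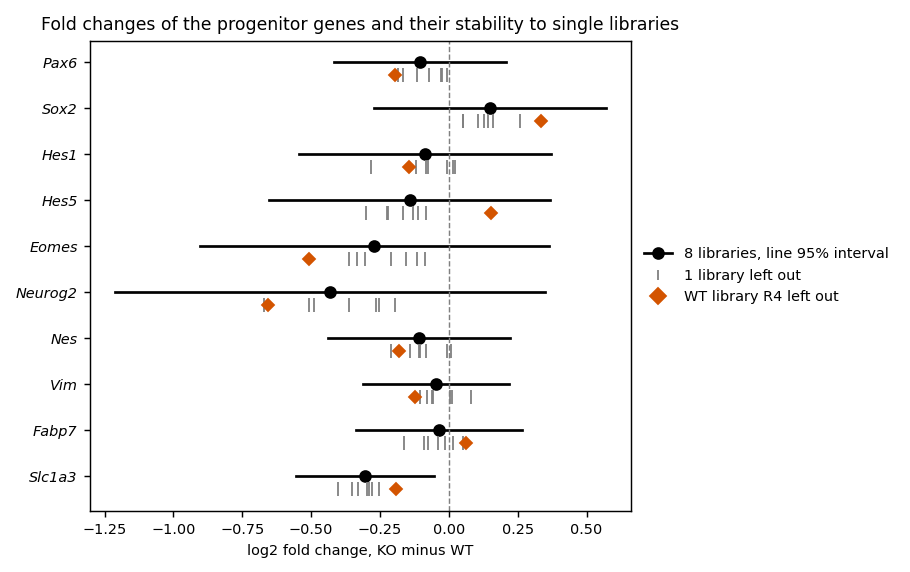
Log2 fold change (KO minus WT, horizontal axis) of each gene with its 95% interval from edgeR (black), and below it the values with 1 library left out (grey ticks) or without WT library R4 (orange diamonds). Only the interval of Slc1a3 stays below 0, and without WT library R4 Eomes moves to -0.51 and Hes5 to 0.15.

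Levels of the genes differed far more than the genotypes did. On the RPKM scale, which divides reads by transcript length and library size, with the length of the transcript that has the longest coding sequence, Fabp7 was highest with 1085 ± 238 in WT and 1056 ± 93.9 in KO (SD, n = 4 each). Vim followed with 171 ± 30.3 in WT, Slc1a3 with 39.2 ± 7.47 and Eomes with 15.5 ± 6.74 (SD, n = 4 each). The first 3 places held in all 8 libraries, and Eomes was above Hes5, at 7.69 ± 3.07 RPKM in WT, in 7 of 8. The exception was WT library R4. Pax6, Neurog2, Nes, Hes1 and Sox2 lay between 2.56 and 4.26 RPKM in WT and not all neighbours in this order were separated. Pax6 was above Neurog2 in 8 of 8 libraries and Nes above Hes1 in 7 of 8, but Neurog2 was above Nes in only 4 of 8 and Hes1 above Sox2 in 3 of 8. The place of Pax6 depends on the length assumed, as its mean in WT falls from 4.26 to 1.80 RPKM when the 19833 bases covered by any of its 33 annotated transcripts are used in place of 8401. All levels assume that a row of the table covers the whole gene.

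**Figure D3:**
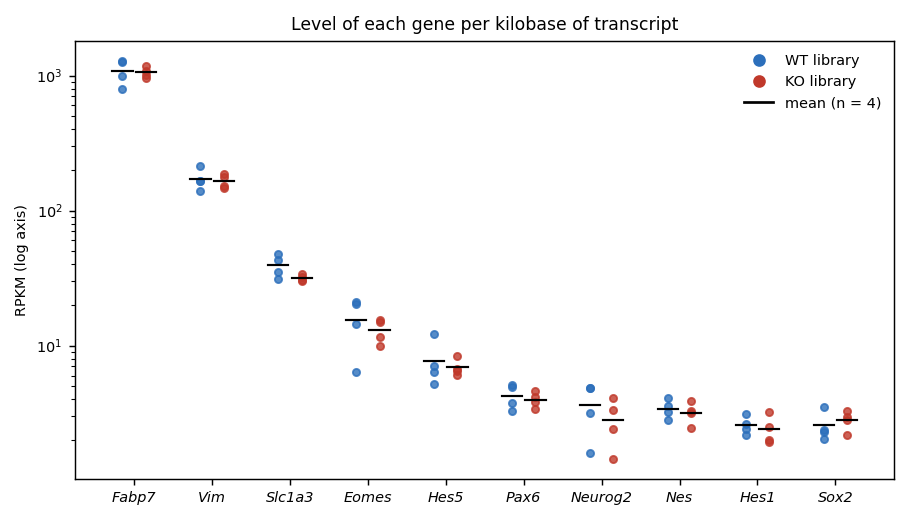
Level of each gene in RPKM (log axis) in the 4 WT (blue) and 4 KO (red) libraries, ordered by the WT mean, with black lines for the means. Fabp7 lies near 1085 RPKM in WT and Sox2 and Hes1 near 2.6, while the genotypes of a gene overlap.

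Spread within a genotype was above that of the median gene for all 10. The pooled standard deviation of log2 values within genotypes was 0.70 for Neurog2 and 0.60 for Eomes, at the percentiles 97.7 and 96.2 of all genes tested, whose median was 0.14. Hes5 had 0.39, and the lowest of the 10, Slc1a3, had 0.20 at the percentile 67.5.

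Single libraries deviated in several of the genes at once. In WT library R4, Eomes, Neurog2, Pax6, Vim, Nes and Hes1 were below their means over the 8 libraries, with a deviation of -1.07 for Eomes on the log2 scale, and Hes5, Slc1a3, Sox2 and Fabp7 were above theirs, by 0.78, 0.45, 0.42 and 0.28. This library was the lowest of the 8 for 3 of the 10 genes and the highest for 4. In WT library R3, 9 of the 10 genes were above their means, all but Sox2, and in KO library R4 all 10 were below. The count of Eomes per count of Slc1a3, which needs no scaling of libraries, was 0.114 in WT library R4, between 0.353 and 0.575 in the other WT libraries and between 0.284 and 0.428 in KO. Eomes per Sox2 was 2.61 in that library, between 10.4 and 13.1 in the other WT libraries and between 5.97 and 7.41 in KO.

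**Figure D4:**
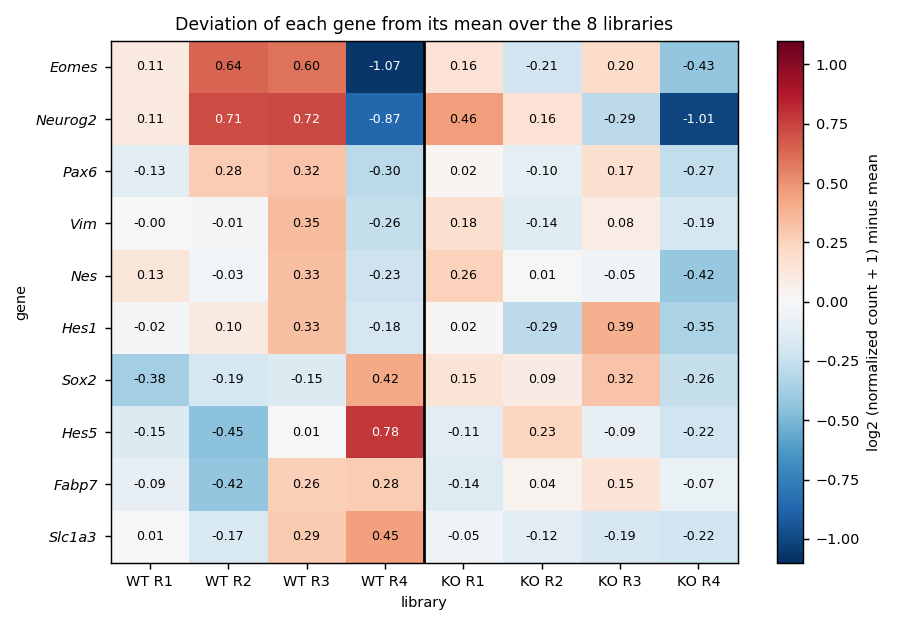
Deviation of log2 (normalized count + 1) of each gene from its mean over the 8 libraries, by gene (rows) and library (columns), with the value in each cell and red for above the mean. WT R4 is blue for Eomes (-1.07) and Neurog2 (-0.87) and red for Hes5 (0.78), and KO R4 is blue in all 10 rows.

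Other markers moved in WT library R4 as well. It had the highest count of 10 of the 13 astrocyte genes tested. The 14 listed astrocyte genes summed to 25263 normalized counts in WT library R4 and to between 15182 and 20014 in the other libraries. The same library had the lowest count of 14 of the 22 proliferation genes, 8 of the 13 other intermediate progenitor and neurogenic genes and 5 of the 11 projection neuron markers. Markers of oligodendrocyte precursors summed to 1564 in it and to between 906 and 1591 elsewhere. The part of these differences in the results of KO against WT was not tested, but the values without the library are known. Without WT library R4 the log2 fold change of Eomes was -0.51 with an unadjusted p of 0.0102 and an adjusted p of 0.27 (edgeR), and that of Neurog2 was -0.66 with an unadjusted p of 0.0475 and an adjusted p of 0.397 (edgeR). In that fit 2 of the 10 genes were lower at an unadjusted p under 0.05, beside 5.4% of all genes, and Slc1a3 was not among them. Without both this library and KO library R1, a setting chosen after seeing the data, 3 of the 10 were lower at this p, Eomes (-0.58), Neurog2 (-0.90) and Slc1a3 (-0.22), beside 4.83% of all genes. WT library R4 was singled out by its own values of these genes, so leaving it out raises the WT mean of Eomes and Neurog2 by construction.

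Genes outside the 10 were read from lists of the same cells and pathway. Of 20 other radial glia genes, 19 were tested and 17 had a log2 fold change below 0, beside 54.4% of all genes, with a median of -0.11. WT library R3 had the highest count of 11 of the 19 and WT library R4 of 6. Without WT library R4, 13 of 20 were below 0 with a median of -0.07. Without KO library R1, 17 of 19 were below 0 with a median of -0.19. With all 8 libraries, Lix1 and Ptprz1, 2 of the 19, were lower at an unadjusted p under 0.05, beside 3.18% of all genes. Lix1 had 434, 508, 507 and 462 normalized counts in KO libraries R1 to R4 and 595, 712, 753 and 672 in WT libraries R1 to R4. It is the 1 gene of the 19 whose genotypes did not overlap, beside 4.49% of all genes. Its log2 fold change was -0.51 (standard error 0.09, unadjusted p = 0.000109, adjusted p = 0.0769, edgeR). Tnc, which encodes the matrix protein tenascin C, had -0.29 (adjusted p = 0.72, edgeR), and Sox9, a transcription factor of neural stem cells and glia, had -0.06 (adjusted p = 0.968, edgeR).

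Among 13 tested genes of the other intermediate progenitor and neurogenic list, 6 were below 0 and the median was 0.01, which became -0.17 without WT library R4. At an unadjusted p under 0.05, 2 of the 13 were lower, beside 3.18% of all genes. The 10 markers of the ganglionic eminence and of interneurons, cells of ventral origin, summed to between 2671 and 2982 normalized counts in KO and to between 2744 and 3664 in WT. Of these, Gsx2 and Nkx2-1, which define ventral progenitors, did not exceed 6.75 and 2.56. The somatostatin receptor gene Sstr2 had 197, 125, 169 and 173 normalized counts in KO libraries R1 to R4 and 188, 234, 218 and 203 in WT libraries R1 to R4, with KO library R1 above WT library R1. It was lower at an unadjusted p of 0.0317 (log2 fold change -0.34, adjusted p = 0.63, edgeR), and the neuronal differentiation factor Neurod1 had 0.11 (adjusted p = 0.876, edgeR).

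The Notch pathway around Hes1 and Hes5 gave few differences. None of the 10 ligands and receptors reached an unadjusted p under 0.05. Dll1, a ligand shown by neurogenic cells, had a log2 fold change of -0.12 and an adjusted p of 0.827 (edgeR), and the receptor Notch1 had 0.01 (adjusted p = 0.989, edgeR). Of 20 genes of processing and regulation, Fbxw7 and Mib2 were higher in KO at an unadjusted p under 0.05 and 0 were lower, beside 4.51% of all genes higher. Fbxw7, part of a ubiquitin ligase that removes active Notch, had 1988, 2057, 2065 and 2041 normalized counts in KO libraries R1 to R4 and 1711, 1703, 1547 and 1730 in WT libraries R1 to R4. These do not overlap, which held for 1 of the 20 genes, beside 4.49% of all genes. The log2 fold change of Fbxw7 was 0.29 (standard error 0.05, unadjusted p = 0.000163, adjusted p = 0.104, edgeR). Of 13 genes of the nuclear complex and other targets, 1 was higher in KO at an unadjusted p under 0.05 and 0 were lower, beside 4.51% of all genes higher. It was Bcl6, a repressor known to silence Hes5 in cortical progenitors, though no link between them was tested here. Bcl6 had 379, 284, 460 and 512 normalized counts in KO libraries R1 to R4 and 303, 183, 163 and 250 in WT libraries R1 to R4, which overlap through KO library R2 and WT library R1. The difference was 0.88 on the log2 scale, with 0.21 as its standard error and an adjusted p of 0.35 (edgeR). Rbpj had -0.01 (adjusted p = 0.989, edgeR).

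Proliferation genes were below 0 in 21 of 22 cases, beside 54.4% of all genes, with a median of -0.19. WT library R3 had the highest count of 13 of the 22 and WT library R2 of 6, while WT library R4 had the lowest of 14. At an unadjusted p under 0.05, 1 of the 22, the mitotic kinase gene Aurka, was lower (log2 fold change -0.38, unadjusted p = 0.0481, adjusted p = 0.646, edgeR), beside 3.18% of all genes. Mki67, the gene of the Ki-67 antigen of dividing cells, had 921, 667, 851 and 603 normalized counts in KO libraries R1 to R4 and 876, 1018, 1177 and 524 in WT libraries R1 to R4. As for Eomes, WT library R4 was the lowest of all and the next lowest was KO library R4. The G1 cyclin gene Ccnd2 had a log2 fold change of -0.22 (adjusted p = 0.778, edgeR). Without WT library R4, 12 of the 22 were lower at an unadjusted p under 0.05, beside 5.4% of all genes, and none of the 22 passed the adjusted p. Without KO library R1, 4 of the 22 were lower, beside 2.46% of all genes. These counts rest on a library chosen after its values were seen, and WT libraries R2 and R3, high for this list, stayed in both fits.

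Slc1a3 is also an astrocyte gene, and 14 others were listed. Of 13 tested, 10 were below 0 with a median of -0.13, which became 0.17 without WT library R4, and 2 were lower at an unadjusted p under 0.05, beside 3.18% of all genes. Without that library 1 of the 13 was lower and 2 were higher at this p, beside 5.4% and 7.05% of all genes. The 2 lower with all libraries are Slc1a2, which encodes the other main glial glutamate transporter (log2 fold change -0.45, adjusted p = 0.629, edgeR), and Slc4a4, a bicarbonate cotransporter gene (log2 fold change -0.58, adjusted p = 0.359, edgeR). Slc4a4 had 341, 333, 327 and 277 normalized counts in KO libraries R1 to R4 and 407, 376, 591 and 547 in WT libraries R1 to R4. It was the 1 gene of the 13 with no overlap, beside 4.49% of all genes. Slc1a2 had 356, 240, 262 and 302 in KO and 408, 314, 326 and 556 in WT in the same order, where KO library R1 lay above WT libraries R2 and R3. Aldh1l1, a general astrocyte gene, had 0.08 (adjusted p = 0.902, edgeR). Markers of oligodendrocyte precursors, 6 in number, gave 0 calls and Olig2 had 0.03 (adjusted p = 0.977, edgeR).

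**Figure D5:**
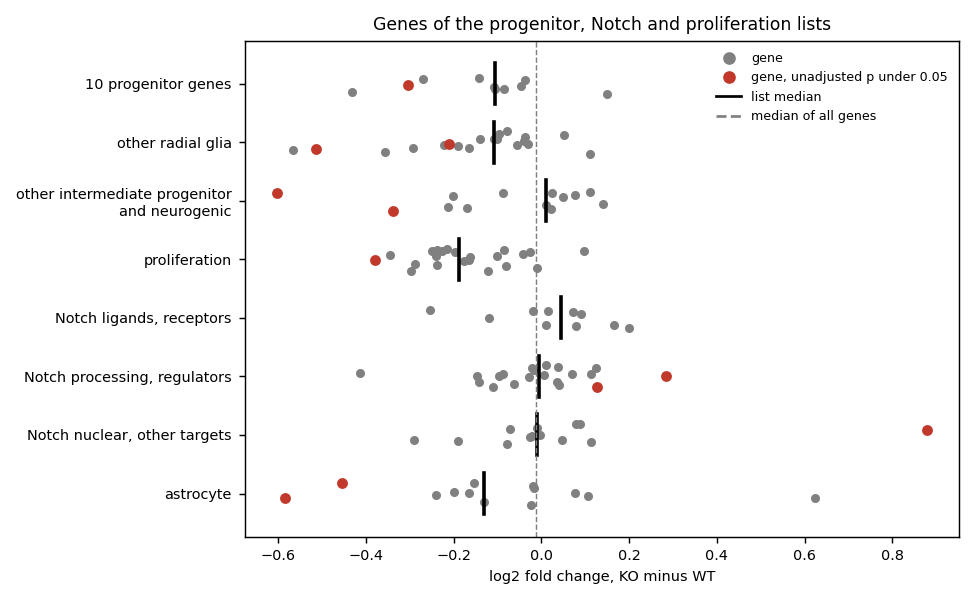
Log2 fold changes (KO minus WT, horizontal axis) of the tested genes of each list (rows), with red for an unadjusted p under 0.05 from edgeR, black bars for the list medians and a dashed line for the median of all genes. The medians are -0.11 for the 10 genes, -0.11 for other radial glia genes and -0.19 for proliferation genes, and Bcl6 lies at 0.88.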

How the data were processed

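Poly-A RNA of 8 embryonic cortices was sequenced as paired reads of 100 bp. Per the labels and the study's methods, reads were trimmed by the authors (Cutadapt 1.13, then Prinseq), aligned by TopHat2 2.0.13 to the mm9 build, handled in Samtools 0.1.19 and counted by HTSeq-count. The authors deposited whole-number counts per gene without normalization. The annotation and strand setting of the counting are not given in the sources used here, and reads lost to overlapping genes or near-identical copies cannot be recovered. The table has 0 per-library columns that were not used, of 21165 rows, and 12699 genes passed edgeR's filter.

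KO was compared with WT by the quasi-likelihood test of edgeR 4.0.16 under R 4.3.3, after filterByExpr and TMM scaling, with no covariate. The standard error is the log2 fold change divided by the square root of F, and the 95% interval uses the degrees of freedom of the test. P-values measure the spread between embryos. DESeq2 1.42.0 was an alternative. Deviations use log2(normalized count + 1). Positions and lengths come from GENCODE M1 on NCBIM37, the assembly behind mm9. The script was tested on simulated data.

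The 10 genes and all lists were chosen with earlier results of these data known. Genes outside the 10 were named where an unadjusted p was under 0.05 with an absolute log2 fold change over 0.25, at most 4 per list, or from a fixed set. Ptprz1, Mib2 and marker genes named for their level were named after their values were seen. Of the listed symbols, 3 were matched by an older symbol and 3 were not found. Some listed genes, also among those that meet this rule, are not reported here.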

Additional observations from a re-analysis of the deposited data

Results flagged for a closer look

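Each gene named here had 1 library set apart from the other 3 of its genotype by more than Dixon's critical value at 95% allows, judged from the gap as a share of the range. Of 76 groups of 4 libraries, 6 exceeded it. Chance would give about 3.8 for independent groups, but most of these flags are meningeal genes in the same library, KO library R1. Genes were also named partly by p-values from the same counts, so the number expected by chance does not apply to them. None of the flags lay in the 10 progenitor genes. In WT, Rbpj was low in library R4 with 645 normalized counts, next to 819, and Fbxw7 was low in library R3 with 1547. In KO, library R1 was high for the meningeal genes Col1a1 with 1199, Col1a2 with 2716, Col3a1 with 3133 and Ptgds with 1786 normalized counts. No cause was tested for these.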

How the results depend on the processing

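No embryo, litter or sex is given for any column, so no fit with litter as a block was possible. Sex was not inferred from the counts, and no fit with sex as a covariate was run. Other scalings (DESeq2's size factors, library totals, upper quartile), other filters on low counts and DESeq2 turned no direction among the 10 genes and changed none of their calls, although DESeq2 called 65 genes at an adjusted p of 0.05 over the whole table and edgeR 9.

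Leaving out 1 library at a time turned the direction of 5 genes, and the cause was not tested. The log2 fold change ranged from -0.28 to 0.022 for Hes1, from -0.30 to 0.15 for Hes5, from -0.21 to 0.0084 for Nes, from -0.12 to 0.079 for Vim and from -0.16 to 0.064 for Fabp7. Genes of the 10 lower at an unadjusted p under 0.05 ranged from 0 to 2 and were 0 without KO library R3, KO library R4 or WT library R3. Calls over all genes at this p, in either direction, ranged from 651 of 12942 without WT library R3 to 1604 of 12887 without WT library R4. Of 110 tested genes in the 7 pathway lists, 7 were lower at that p, beside 3.18% of all genes, and 5 to 20 with 1 library left out. There were 20 without WT library R4, beside 5.4% of all genes, and 11 without KO library R1, beside 2.46%. The median of the other intermediate progenitor genes ranged from -0.17 to 0.039 and that of astrocyte genes from -0.23 to 0.17.

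Without both KO library R1 and WT library R4, chosen after seeing the data, Hes5 was at 0.17 and Fabp7 at 0.11. In that fit 3 of the 10 genes and 27 pathway genes were lower at the unadjusted p, beside 4.83% of all genes. The intermediate progenitor median was -0.26. Depth limits Hes1 and Neurog2 most, with 31 and 35 counts in WT library R4.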

Other observations

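The 5 tested genes outside the 10 whose pattern over the 8 libraries was nearest to the median deviation of the 10 genes were Meis2, Efnb1, Nat12, Plce1 and Cnn3. Their root mean square difference from that median, over 8 libraries on the log2 scale, was 0.051, 0.059, 0.065, 0.065 and 0.066, where a gene with no change at all would differ by 0.174. The median deviation ranged from -0.27 in KO library R4 to 0.32 in WT library R3. Meis2, which encodes a homeodomain transcription factor, followed it with -0.18 and 0.28 in these libraries, and Efnb1, which encodes the ligand ephrin-B1, with -0.18 and 0.27. None of these 5 genes differed between genotypes at an unadjusted p under 0.05, and the log2 fold change was -0.03 for Meis2 and 0.03 for Efnb1.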
